A study of Mus musculus with 8 samples.

Results

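Pak1, Hras, Nras, Sos1, Rasa1, Map2k1 and Mapk3 are genes of the route that runs from growth factor receptors through Ras to the MAP kinases, and Pak1, a p21-activated kinase, was set here against its upstream and downstream partners. They were chosen by gene symbol, and all 7 were found among the 27041 rows of the count table from skeletal muscle. Pak1 was the member with the highest transcript level in LSD1skm-/- muscle relative to Ctrl: its mean was 27.1 CPM (read counts scaled to a common library size) in 4 Ctrl libraries and 39 CPM in 2 LSD1skm-/- libraries, a 1.44-fold difference, and its groups did not overlap. Each of the 6 partners had overlapping groups. Over all genes tested with these libraries, groups did not overlap in 17.8%, and in 9.8% with LSD1skm-/- higher. At the filter used throughout (a mean count over 50), no member passed an adjusted p of 0.05 in edgeR's quasi-likelihood test, with or without a Ctrl library whose Kdm1a level goes against its label. When that library was left out, Pak1 did pass under some other settings and failed under the rest. Where it passed with DESeq2 or without the filter, more genes passed in all as well.

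Ras proteins are small GTPases at the inner face of the cell membrane that are switched on by exchange factors such as Sos1 and switched off by GTPase-activating proteins such as Rasa1. Active Ras recruits Raf kinases, which phosphorylate the MEK kinases (Map2k1 encodes MEK1), and these in turn phosphorylate the ERK kinases (Mapk3 encodes ERK1). Pak1 is activated by the Rac and Cdc42 GTPases, acts on the actin cytoskeleton, and also phosphorylates Raf and MEK kinases, so that it feeds into the same cascade, which in muscle takes part in growth, differentiation and the response to contraction.

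The study asked what loss of LSD1, the histone demethylase encoded by Kdm1a, does to gene expression in muscle fibers. Ctrl mice carried Kdm1a alleles (LSD1 L2/L2) in which loxP sites flank the first exon, with no Cre. LSD1skm-/- mice carried the same alleles with HSA-Cre, whose human skeletal actin promoter drives recombination in myofibers and not in the other cells of the tissue. All animals were untreated C57BL/6J males aged 9 weeks, and the muscle was the gastrocnemius. Of the 8 libraries labelled, the 4 Ctrl libraries and LSD1skm-/- replicates 1 and 2 were used, and LSD1skm-/- replicates 3 and 4 were not analysed here.

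The libraries held 32616912 to 41278769 counts in Ctrl and 30654828 to 37788092 in LSD1skm-/-. Kdm1a, the targeted gene, measured 22.9, 21.9 and 28.0 CPM in the Ctrl libraries numbered 1 to 3, while LSD1skm-/- libraries had 2.95 and 3.47 CPM. The library labelled Ctrl replicate 4 held 3.65 CPM, at the LSD1skm-/- level and against its label, so the members and the pathway genes are given with and without it. The 6 myofiber markers were all detected, with summed levels of 157100 to 174100 CPM in Ctrl replicates 1 to 3, 150400 CPM in the library labelled Ctrl replicate 4 and 144000 to 155100 CPM in LSD1skm-/-. No library was a copy of another, since the chi-square divided by its degrees of freedom was 24.2 to 94.1 over the 15 pairs. The labels do not say that the libraries came from separate mice, so p-values measure the spread between these libraries only, and in bulk tissue fewer cells of a type and less RNA per cell cannot be told apart.

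Pak1 (GRCm38 chr7:97788541-97912381, plus strand, 15 exons in its longest coding transcript) lay at 22.9, 31.1, 19.7 and 34.8 CPM in Ctrl replicates 1 to 4 and at 38.5 and 39.5 CPM in LSD1skm-/- replicates 1 and 2. Both LSD1skm-/- libraries were above every Ctrl library, the library labelled Ctrl replicate 4 was the highest of its group, and Ctrl replicate 2 came next. The Ctrl libraries ranged widely, with 27.1 ± 6.99 CPM (SD, n = 4), whereas the LSD1skm-/- libraries lay close together at 39 ± 0.675 CPM (SD, n = 2). The log2 fold change was 0.52 ± 0.22 (SE, 95% interval 0.02 to 1.03), with an unadjusted p of 0.0447 and an adjusted p of 0.557 in edgeR's quasi-likelihood test. It was 0.67 ± 0.18 (SE, interval 0.24 to 1.10), a 1.59-fold difference with an adjusted p of 0.0902, without the library labelled Ctrl replicate 4. In that comparison Pak1 passed with DESeq2 (adjusted p = 0.0189) and with no filter beyond 1 count (edgeR adjusted p = 7.3e-05). Both settings also called more genes in all than the main fit, as counted in the closing section. Leaving out Ctrl replicate 2 as well gave 0.87 and an adjusted p of 0.0145 in edgeR, and leaving out Ctrl replicate 3 in its place gave 0.53 and 0.146.

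Pak1 was thus the one member of 7 with an unadjusted p under 0.05 and a fold change above 1.3 or below 0.77, in either comparison. That is 14.3% of the members, beside 6.31% of the 11364 genes tested with all libraries (3.43% higher and 2.88% lower) and 15% of the 11200 genes tested without the library labelled Ctrl replicate 4 (9.96% higher and 5.05% lower). At an adjusted p under 0.05 the members called were 0 of 7 in both, beside 0% and 5.27% of all genes tested, the latter made up of 4.25% higher and 1.02% lower. Groups that do not overlap with LSD1skm-/- higher, as for Pak1, were found in 9.8% of genes with all libraries (17.8% in either direction) and in 20.1% without the library labelled Ctrl replicate 4 (37.6% in either direction). The study named Pak1, Hras, Rasa1 and Mapk3 among genes upregulated in both LSD1skm-/- and GR-deficient muscle, from data that include these libraries. A direction shared with that list is therefore no independent evidence. Rasa1 and Mapk3 did not share it here, with log2 fold changes of -0.02 and -0.08 over all libraries and intervals that span 0. These values come from edgeR and from 2 of the 4 labelled LSD1skm-/- libraries. The study used DESeq2, so the test differs and the samples may differ too.

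**Figure D1:**
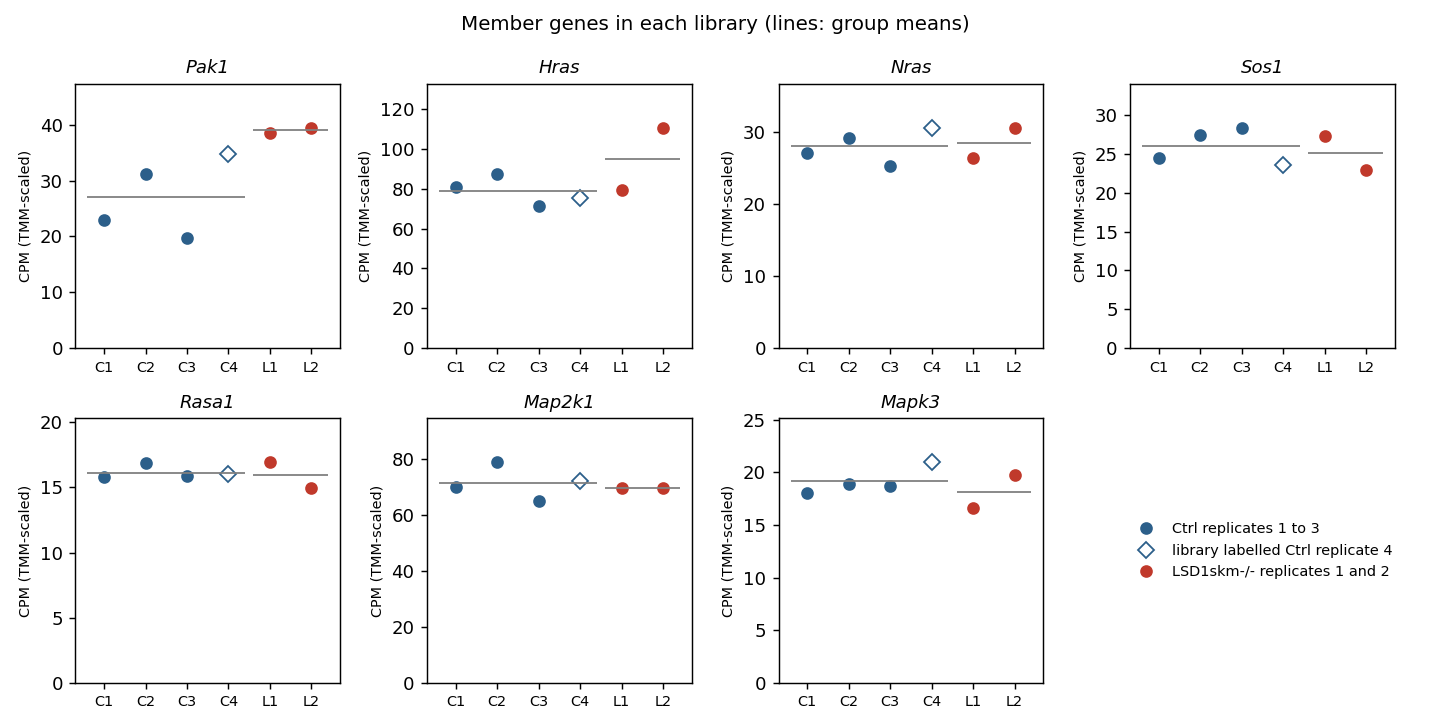
Normalised level (CPM, linear axis from 0) of each member gene in Ctrl libraries 1 to 4 (C1 to C4, blue; the open diamond is the library labelled Ctrl replicate 4) and LSD1skm-/- libraries 1 and 2 (L1 and L2, red), with a line at each group mean. Pak1 is the panel in which both red points, at 38.5 and 39.5 CPM, lie above all blue ones; in the other 6 panels the groups overlap.

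Transcript sums for 3 other cell types moved in the same direction as Pak1, and other sums did not. That of slow-twitch fibers was lower, at 441.4 to 793.1 CPM in LSD1skm-/- against 1029 to 2063 CPM in Ctrl replicates 1 to 3 and 1183 CPM in the library labelled Ctrl replicate 4. The 7 fibroblast markers, all detected, summed to 463.6 to 506.2 CPM in Ctrl replicates 1 to 3, to 734.2 CPM in the library labelled Ctrl replicate 4 and to 644.5 to 762.5 CPM in LSD1skm-/-. Among them Col1a1, Col1a2 and Col3a1 overlapped with all libraries (Col1a1 up to 99.3 CPM in Ctrl, 53.8 to 74.6 CPM in LSD1skm-/-). Pdgfra, Dcn, Lum and Dpt did not overlap, and Dcn in the library labelled Ctrl replicate 4 stayed within the 195.2 to 232.3 CPM of Ctrl replicates 1 to 3. The 5 satellite cell markers, all detected, summed to 31.8 to 37.2 CPM in Ctrl replicates 1 to 3, to 44.2 CPM in the library labelled Ctrl replicate 4 and to 41.3 to 44.3 CPM in LSD1skm-/-. Cdh15 held the largest part of this sum (18.6 to 23.4 CPM in Ctrl, 24.3 to 25.1 CPM in LSD1skm-/-). With all libraries the groups of Pax7, Myf5, Vcam1 and Chodl overlapped. Vcam1 went the other way, with a log2 fold change of -0.15, or -0.11 without the library labelled Ctrl replicate 4. The 5 blood markers, all detected, summed to 28.1 to 43.6 CPM, to 52.1 CPM and to 64.0 to 65.7 CPM. Pak1 and the fibroblast, satellite cell and blood sums were therefore all higher in the LSD1skm-/- libraries and in the library labelled Ctrl replicate 4 than in Ctrl replicates 1 to 3. The part of cell types in the Pak1 result was not tested.

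Among the Ras GTPases, Hras (chr7:141189105-141194005, minus strand) lay at 80.8, 87.2, 71.4 and 75.6 CPM in Ctrl replicates 1 to 4 and at 79.3 and 111 CPM in LSD1skm-/- replicates 1 and 2. LSD1skm-/- replicate 1 fell inside the Ctrl range and replicate 2 above it. The log2 fold change of 0.27 ± 0.15 (SE, 95% interval -0.08 to 0.62, edgeR adjusted p = 0.601) came from that one library, since it was 0.01 without LSD1skm-/- replicate 2 and 0.49 without replicate 1. It was 0.25 (-0.11 to 0.62, edgeR adjusted p = 0.426) without the library labelled Ctrl replicate 4, and -0.01 when LSD1skm-/- replicate 2 was also left out.

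Nras (chr3:103058285-103067914, plus strand), which encodes a close relative of Hras, lay at 27.1, 29.2, 25.3 and 30.6 CPM in Ctrl and at 26.4 and 30.6 CPM in LSD1skm-/-. The LSD1skm-/- libraries sat within the Ctrl range, and the log2 fold change was 0.02 (95% interval -0.25 to 0.30), or 0.07 (-0.20 to 0.34) without the library labelled Ctrl replicate 4. Reads of Hras and Nras can be told from those of other genes for the most part, since none of the 50-base windows of Hras exons and 0.73% of those of Nras occur in another gene.

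Sos1 and Rasa1, which act on Ras in opposite directions, showed no difference larger than the spread between libraries. Sos1 (chr17:80393751-80480453, minus strand), the exchange factor that loads Ras with GTP, lay at 24.4, 27.5, 28.4 and 23.6 CPM in Ctrl and at 27.3 and 23.0 CPM in LSD1skm-/-. Its log2 fold change was -0.05 (95% interval -0.34 to 0.25) with all libraries and -0.09 (-0.38 to 0.21) without the library labelled Ctrl replicate 4. Rasa1 (chr13:85214780-85289130, minus strand), the GTPase-activating protein that returns Ras to its inactive state, was the steadiest member across Ctrl, at 15.8, 16.9, 15.8 and 16.01 CPM, against 16.9 and 14.95 CPM in LSD1skm-/-. Its log2 fold change was -0.02 in both comparisons (95% intervals -0.26 to 0.23 and -0.28 to 0.25). The Rasa1 exons share 12 bases, 0.16% of their length, with Ccnh on the opposite strand.

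Map2k1 and Mapk3, the kinases at the lower end of the cascade, also had overlapping groups. Map2k1 (chr9:64185770-64253631, minus strand) lay at 69.8, 78.8, 64.8 and 72.0 CPM in Ctrl and at 69.6 and 69.8 CPM in LSD1skm-/-, both inside the Ctrl range. Its log2 fold change was -0.03 in both comparisons (95% intervals -0.28 to 0.22 and -0.28 to 0.23). Mapk3 (chr7:126759601-126765819, plus strand) lay at 18.1, 18.9, 18.7 and 20.9 CPM in Ctrl and at 16.6 and 19.7 CPM in LSD1skm-/-. The LSD1skm-/- libraries fell on either side of Ctrl replicates 1 to 3, and the log2 fold change was -0.08 (95% interval -0.36 to 0.20), or -0.03 (-0.30 to 0.24) without the library labelled Ctrl replicate 4. For Nras, Sos1, Rasa1, Map2k1 and Mapk3 the sign of these small differences turned when single libraries were left out, and for Rasa1 and Map2k1 also when libraries were scaled by total counts alone, as it did for Mapk3 without the library labelled Ctrl replicate 4. Taken over these 5 genes and both comparisons, the 95% intervals reach from -0.38 to 0.34, so differences inside that span are not shown to be absent.

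**Figure D2:**
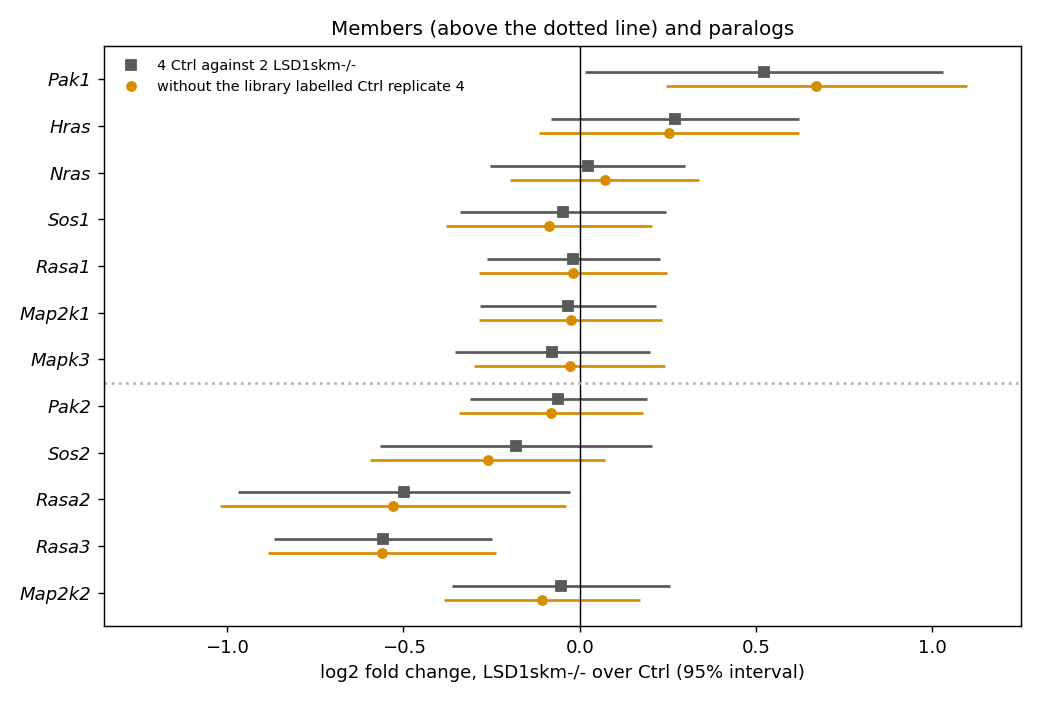
Log2 fold change of LSD1skm-/- over Ctrl from edgeR for the 7 members (above the dotted line) and 5 tested paralogs (below it), with 95% intervals as horizontal bars; grey squares use all 6 libraries and orange circles leave out the library labelled Ctrl replicate 4. Among the members the Pak1 intervals (0.02 to 1.03 and 0.24 to 1.10) lie above 0, and those of the others span 0; among the paralogs the intervals of Rasa2 and Rasa3 lie below 0.

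Divided by the length of the longest coding transcript, the members fell into 3 tiers in Ctrl muscle. Map2k1 at 29.3 ± 2.37 CPM per kilobase (SD, n = 4) and Hras at 27.9 ± 2.41 were the most abundant and did not differ beyond their spread. Mapk3 at 10.6 ± 0.688, Pak1 at 8.85 ± 2.28 and Nras at 6.28 ± 0.522 came next, and Pak1 overlapped both of its neighbours. Rasa1 at 3.54 ± 0.109 and Sos1 at 3.08 ± 0.276 were lowest, and their ranges did not overlap. In LSD1skm-/- muscle the order of Mapk3 and Pak1 was exchanged, with Pak1 at 12.7 ± 0.219 CPM per kilobase (SD, n = 2) above Mapk3 at 10.1 ± 1.23, and Hras at 33.6 ± 7.84 stood beside Map2k1 at 28.6 ± 0.0697 with overlapping ranges. With lengths taken over all annotated exons, Sos1 (2.45 CPM per kilobase in Ctrl) came above Rasa1 (2.2), so the order of those genes depends on the length used.

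A ratio of Pak1 reads to a partner's reads within a library does not depend on how libraries are scaled to each other. The log2 ratio of Pak1 to Map2k1 was -1.61, -1.34, -1.72 and -1.05 in the Ctrl libraries, in the order of their numbers, against -0.85 and -0.82 for LSD1skm-/- replicates 1 and 2. Both LSD1skm-/- libraries were above all Ctrl libraries, by 0.59 on average over the group means (exact permutation test over libraries, two-sided, p = 0.13). The log2 ratio of Pak1 to Mapk3 was 0.34, 0.72, 0.08 and 0.73 in Ctrl and 1.22 and 1 in LSD1skm-/-, again with no overlap and with a difference of 0.64 (exact permutation p = 0.13). The smallest p that 4 against 2 libraries allow is 0.067, so none of these ratios could reach 0.05.

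Relative to the regulators of Ras, Pak1 stood higher by a similar amount, with differences in log2 ratio of 0.61 against Sos1 (exact permutation p = 0.27) and 0.58 against Rasa1 (exact permutation p = 0.13). For Sos1 the groups overlapped, because the library labelled Ctrl replicate 4 (0.56) lay above LSD1skm-/- replicate 1 (0.50). For Rasa1 they did not. Against Nras the difference was 0.54 with no overlap (exact permutation p = 0.13). Against Hras it was the smallest, 0.31 (exact permutation p = 0.20), and the groups overlapped because the library labelled Ctrl replicate 4 (-1.12) lay above LSD1skm-/- replicate 2 (-1.49). Ctrl replicate 2, also at -1.49, was level with that LSD1skm-/- library to 2 decimals. In the comparison of 3 Ctrl with 2 LSD1skm-/- libraries, which omits the library labelled Ctrl replicate 4, the differences were 0.46 for Hras, 0.63 for Nras, 0.79 for Sos1, 0.72 for Rasa1, 0.72 for Map2k1 and 0.73 for Mapk3. The exact permutation p was then 0.10 for Map2k1, the smallest that 3 against 2 libraries allow, and 0.20 for the other 5. The 6 ratios share the Pak1 counts, so they are 1 observation of Pak1 seen against 6 genes.

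**Figure D3:**
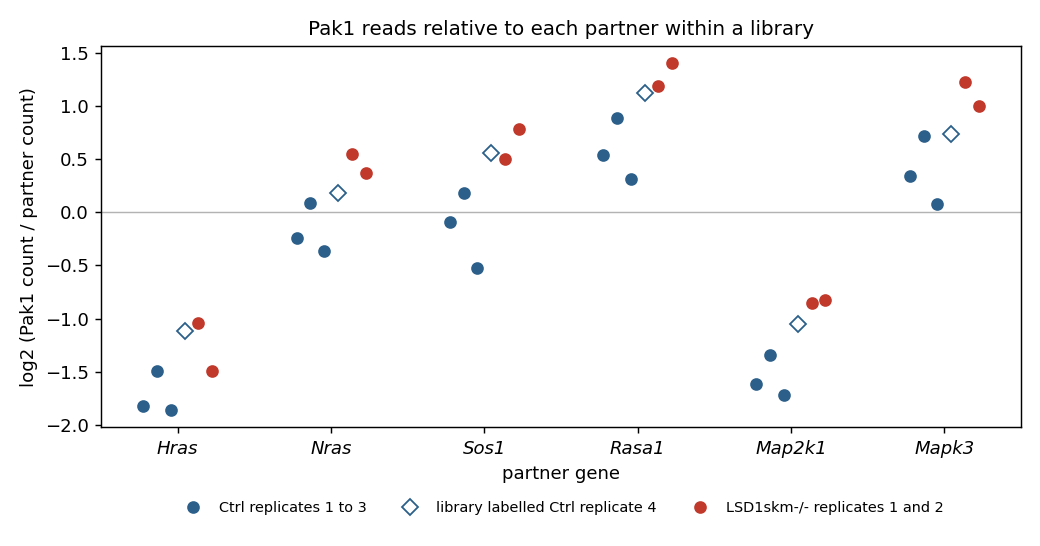
Log2 of Pak1 reads over partner reads in each library (vertical axis) for the 6 partner genes; within a partner, points run from Ctrl replicates 1 to 4 (blue; open diamond for the library labelled Ctrl replicate 4) to LSD1skm-/- replicates 1 and 2 (red). The red points lie above all blue circles for Nras, Sos1, Rasa1, Map2k1 and Mapk3, while for Hras LSD1skm-/- replicate 2 sits level with Ctrl replicate 2 at -1.49.

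Within the PAK family, Pak2, which encodes the widely expressed relative of Pak1, lay at 26.1, 27.9, 29.5 and 26.0 CPM in Ctrl and at 24.5 and 27.9 CPM in LSD1skm-/-. The groups overlapped and the log2 fold change was -0.06 (95% interval -0.31 to 0.19), or -0.08 (-0.34 to 0.18) without the library labelled Ctrl replicate 4. Pak3, known mainly from neurons, had 2 to 6 reads per library and was not tested. Per kilobase of transcript, Pak1 made up 62.1, 67.6, 55.6 and 71.4% of the summed Pak1, Pak2 and Pak3 level in Ctrl replicates 1 to 4 and 74.6 and 72.6% in LSD1skm-/-, so the share was higher in both LSD1skm-/- libraries than in any Ctrl library, and nearest to them in the library labelled Ctrl replicate 4.

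For the MEK kinases and the Sos exchange factors the proportions were similar in both groups. Map2k1 made up 25.2 to 30.8% of the Map2k1 and Map2k2 level per kilobase in Ctrl and 30.6 and 26.2% in LSD1skm-/-, so the ranges overlapped, and Map2k2 was the major form in every library. Sos2 likewise held 76.9 to 79.8% of the Sos1 and Sos2 level over all 6 libraries.

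Rasa1 made up 45.2, 47.7, 46.0 and 46.9% of the Rasa1, Rasa2 and Rasa3 level per kilobase in Ctrl and 58.4 and 52.7% in LSD1skm-/-, with Rasa1 itself level. Rasa3, another GTPase-activating protein of the same family, lay at 15.01, 14.2, 13.8 and 14.1 CPM in Ctrl and at 8.52 and 10.8 CPM in LSD1skm-/-, so both LSD1skm-/- libraries were below all Ctrl libraries. Its log2 fold change was -0.56 ± 0.13 (SE), with an unadjusted p of 0.00328 and an adjusted p of 0.557 in edgeR, and -0.56 ± 0.14 with an adjusted p of 0.0658 without the library labelled Ctrl replicate 4. Rasa2 lay at 4.65, 4.82, 5.46 and 4.54 CPM in Ctrl and at 4.09 and 2.81 CPM in LSD1skm-/-, with a log2 fold change of -0.50 ± 0.20 (SE, edgeR unadjusted p = 0.0402, adjusted p = 0.557) that was -0.25 without LSD1skm-/- replicate 2 and -0.53 (edgeR adjusted p = 0.218) without the library labelled Ctrl replicate 4. In the library labelled Ctrl replicate 4, Rasa3 stood within the range of the other Ctrl libraries and Rasa2 just below it, while Pak1 stood above the other Ctrl libraries and below both LSD1skm-/- libraries. Groups that do not overlap with LSD1skm-/- lower made up 8.02% of all genes tested with all libraries and 17.5% without the library labelled Ctrl replicate 4.

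**Figure D4:**
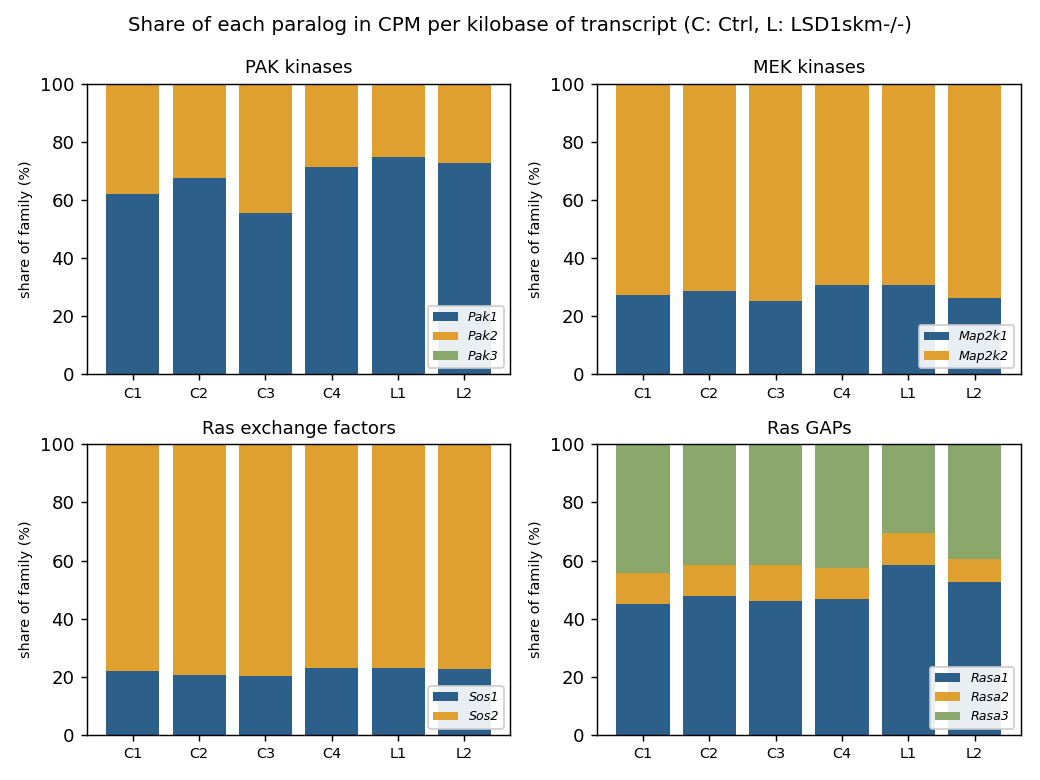
Stacked bars of the share (%) of each paralog in its family, in CPM per kilobase of transcript, for Ctrl libraries 1 to 4 (C1 to C4) and LSD1skm-/- libraries 1 and 2 (L1 and L2). The Pak1 share runs from 55.6 to 71.4% in Ctrl and is 74.6 and 72.6% in LSD1skm-/-; the Rasa1 share is 45.2 to 47.7% in Ctrl and 58.4 and 52.7% in LSD1skm-/-, beside a lower Rasa3 share.

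The wider pathway was read from a list of 113 genes in 12 roles, of which 111 were in the table and 99 were tested. With all libraries 43 had a higher and 56 a lower level in LSD1skm-/- muscle, the median log2 fold change was -0.05 against -0.01 over all genes tested, and 0 passed an adjusted p of 0.05 in edgeR. At an unadjusted p under 0.05, 3 were higher (Pak1, Arhgef7, Map2k6) and 8 lower, beside 8.9% of all genes in either direction. With the fold limits these were 3 and 6, or 9.09% of the list beside 6.31% of all genes. Without the library labelled Ctrl replicate 4 the adjusted calls were 3 higher and 1 lower, 4.04% of the list beside 5.27% of all genes, and the calls with the fold limits were 15.2% of the list beside 15%. At an unadjusted p under 0.05 there were 9 higher and 10 lower, beside 20.1% of all genes in either direction. With the fold limits the list held 7 higher and 8 lower genes, while over all genes 9.96% were higher and 5.05% lower. The calls in the list thus did not share the lean of all genes toward higher levels, a contrast that was not tested. The share of the list called in either direction with the fold limits was near that of all genes in this comparison.

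By role, all 5 tested Ras exchange factors (Sos1 among them) had log2 fold changes below 0, with a median of -0.18 with all libraries and -0.26 without the library labelled Ctrl replicate 4. Of 8 GTPase-activating proteins 6 and 5 were below 0, with medians of -0.125 and -0.124. Among the PAK substrates and actin targets, 1 of 10 had a level above Ctrl in both comparisons, with medians of -0.135 and -0.129, and the calls at an unadjusted p under 0.05 were 0 and 1. The inhibitors and ERK phosphatases had 5 and 6 of 9 above 0, and their median went from 0.02 to 0.22 when that library was left out. The ERK substrate kinases and factors had 6 and 5 of 12 above 0 (medians -0.01 and -0.13), the PAK activators and adaptors 7 and 6 of 12 (medians 0.02 and -0.003), and the JNK and p38 modules 4 and 3 of 10 (medians -0.08 and -0.11). The Ras GTPases had 5 of 6 above 0 in both (medians 0.06 and 0.10), the HGF receptor and its adaptors 6 and 5 of 11 (medians 0.02 and -0.01), and the Raf kinases and scaffolds 5 of 9 in both (medians 0.03 and 0.01). Over all genes tested 48.6% had a log2 fold change above 0, and 49% without the library labelled Ctrl replicate 4.

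The genes of the list that rose or fell at an adjusted p under 0.05 did so without the library labelled Ctrl replicate 4, and none of them was a member. Map2k6, which encodes MKK6, an activator of the p38 kinases, lay at 37.9, 43.2, 35.2 and 73.1 CPM in Ctrl replicates 1 to 4 and at 73.6 and 90.5 CPM in LSD1skm-/-. It rose 2.12-fold (log2 fold change 1.09 ± 0.13, SE, edgeR adjusted p = 0.00548) without the library labelled Ctrl replicate 4. With it the log2 fold change was 0.79 and the adjusted p 0.557, and without LSD1skm-/- replicate 2 the adjusted p was 0.0601. Arhgef7, which encodes the PAK-binding exchange factor beta-PIX, lay at 46.0, 45.3, 51.3 and 66.3 CPM in Ctrl and at 69.0 and 70.4 CPM in LSD1skm-/-. It rose 1.47-fold (log2 fold change 0.56 ± 0.10, SE, edgeR adjusted p = 0.0243) without the library labelled Ctrl replicate 4, and this call was lost when Ctrl replicate 1 (adjusted p = 0.0828), Ctrl replicate 2 (0.072), LSD1skm-/- replicate 1 (0.0955) or LSD1skm-/- replicate 2 (0.136) was left out too. In both genes the library labelled Ctrl replicate 4 was close to the LSD1skm-/- level. For Pak1 it was also the highest of its group, but at 34.8 CPM it lay between Ctrl replicate 2 (31.1 CPM) and LSD1skm-/- replicate 1 (38.5 CPM).

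Mapk10, which encodes the stress kinase JNK3, was a low-count gene with 23, 33, 8 and 245 reads in Ctrl replicates 1 to 4 and 163 and 185 reads in LSD1skm-/-. It rose 7.91-fold (log2 fold change 2.98 ± 0.42, SE, edgeR adjusted p = 0.0104) without the library labelled Ctrl replicate 4, with an adjusted p of 0.0704 when LSD1skm-/- replicate 1 was left out too and 0.0917 when replicate 2 was. With that library, which held the highest count of all, the log2 fold change was 1.39 and the adjusted p 0.649. Rps6ka3, which encodes the ERK-activated kinase RSK2, lay at 87.6, 92.6, 87.7 and 65.1 CPM in Ctrl and at 67.1 and 56.4 CPM in LSD1skm-/-. It fell by 0.53 ± 0.11 on the log2 scale (SE, edgeR adjusted p = 0.0421) without the library labelled Ctrl replicate 4. Each further library left out ended the call, with adjusted p from 0.061 to 0.211.

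Lower levels with an unadjusted p under 0.05 in both comparisons and no adjusted call were found for Mras and Rasgrp3. The same held for Rasa2 and Rasa3, given above, and for Elk4 and Arhgef6, given below. Mras, a Ras relative that works with Shoc2 on Raf kinases, lay at 11.8, 9.40, 8.44 and 6.93 CPM in Ctrl and at 5.63 and 6.28 CPM in LSD1skm-/- (log2 fold change -0.62, edgeR unadjusted p = 0.0233, adjusted p = 0.557), and its log2 fold change was -0.72 (adjusted p = 0.0611) without the library labelled Ctrl replicate 4. Rasgrp3, a diacylglycerol-responsive Ras exchange factor, lay at 40.9, 56.2, 43.8 and 48.1 CPM in Ctrl and at 35.5 and 32.3 CPM in LSD1skm-/- (log2 fold change -0.48, edgeR unadjusted p = 0.0116, adjusted p = 0.557), and -0.46 (adjusted p = 0.147) without that library. The sum of the 7 endothelial markers, all detected, was lower in LSD1skm-/- as well, at 153.0 and 153.2 CPM against 171.7 to 188.6 CPM in Ctrl replicates 1 to 3 and 223 CPM in the library labelled Ctrl replicate 4. One of them, Vwf, went the other way, at 14.7 and 16.5 CPM in LSD1skm-/- against 12.6 to 14.2 CPM in the 4 Ctrl libraries. Their part in the Rasgrp3 result was not tested. With all libraries, the remaining genes of the list with an unadjusted p under 0.05, Elk3, Elk4 and Arhgef6, were lower by 0.29 to 0.43 on the log2 scale. They are named, after their values were seen, because they complete the count. Without the library labelled Ctrl replicate 4 the log2 fold change of Arhgef6 was -0.38 (edgeR unadjusted p = 0.009, adjusted p = 0.101). That of Elk4 was -0.29 (unadjusted p = 0.0471, adjusted p = 0.243), and Elk3, also at -0.29, had an unadjusted p of 0.0621. Of the Elk3 windows of 50 bases, 5.9% also occur in Cdk17, which overlaps it on the opposite strand.

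Leaving out the library labelled Ctrl replicate 4 added higher genes that the comparison of all libraries did not hold, named here after their values were seen. Etv4, an ETS factor and a common target of ERK signaling, lay at 3.38, 1.997, 1.79 and 4.90 CPM in Ctrl and at 4.27 and 5.94 CPM in LSD1skm-/-, 2.14-fold higher in that comparison (edgeR unadjusted p = 0.00721, adjusted p = 0.09). Mknk1, a kinase that ERK activates, lay at 20.4, 24.2, 20.2 and 29.1 CPM in Ctrl and at 31.2 and 27.7 CPM in LSD1skm-/- (1.37-fold, edgeR unadjusted p = 0.00751, adjusted p = 0.0921). Dusp6, the phosphatase that dampens ERK, lay at 12.0, 12.0, 8.67 and 15.7 CPM in Ctrl and at 13.7 and 16.9 CPM in LSD1skm-/- (1.41-fold, edgeR unadjusted p = 0.0247, adjusted p = 0.173). In all 3 the library labelled Ctrl replicate 4 was the highest of its group and lay between the LSD1skm-/- libraries. Rasa4 and Nck1 were higher, and Flna, Rps6ka4 and Ptpn11 lower, at an unadjusted p under 0.05 there, with edgeR adjusted p from 0.0588 to 0.247.

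**Figure D5:**
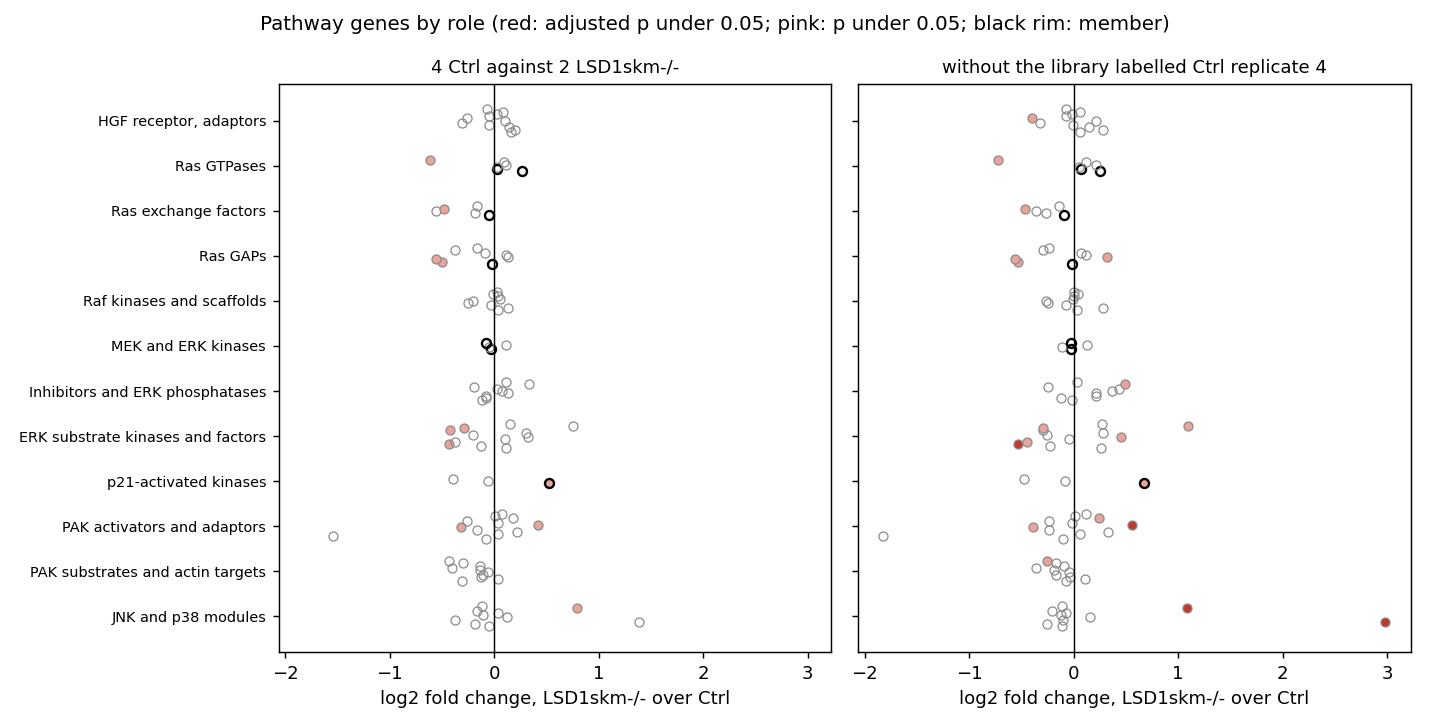
Log2 fold change of LSD1skm-/- over Ctrl for the 99 tested pathway genes by role, with all libraries (left) and without the library labelled Ctrl replicate 4 (right); each circle is a gene, black rims mark members, pink fill an unadjusted p under 0.05 and red fill an adjusted p under 0.05 in edgeR. Pak1 is the filled black-rimmed circle at 0.52 (left) and 0.67 (right), and the 4 red circles on the right are Map2k6, Arhgef7, Mapk10 and Rps6ka3.

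The genes whose levels followed those of Pak1 most closely over the 6 libraries were Fut10, Dclk1, Gtf2ird1, Arrb1 and E2f5. Likeness was measured as the root mean square difference of log2 CPM after each gene was centred on its own mean, which was 0.05 for Fut10 and 0.08 to 0.09 for the other 4, against a median of 0.41 over the 11363 genes compared. Fut10 lay at 9.96, 13.8, 9.42 and 16.3 CPM in Ctrl replicates 1 to 4 and at 17.3 and 17.2 CPM in LSD1skm-/-, so it shared with Pak1 low values in Ctrl replicates 1 and 3 and higher ones in Ctrl replicate 2 and the library labelled Ctrl replicate 4. Of the partners, Hras was nearest to Pak1, at a difference of 0.31 and rank 1722, and Sos1 farthest, at 0.44 and rank 6766. A gene with the same level in every library would stand at 0.376, so even Hras followed Pak1 little more than a flat gene would. Within the pathway list Mknk1 (0.168, rank 108), Dusp6 (0.178, rank 156) and Etv5 (0.191, rank 202) were nearer, and are named after their values were seen. This is a description over 6 libraries that share their depth and group labels.

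The promoters of the members were searched for the core motif of NRF1 and for a full palindromic glucocorticoid response element (inverted hexamers with a free spacer between them), on both strands, since the study deals with both factors. RefSeq windows (GRCm38.p6) from 250 bases before to 50 bases after the start were at hand for 6 members, 7 windows in all because Pak1 has 2, and Mapk3 was not searched. The NRF1 core was found in 1 of the 7 windows, that of Rasa1, beside 4.6% of all 32851 windows. It begins 48 bases before the RefSeq start of Rasa1, which lies upstream of the GENCODE span given above, and is shown here with its neighbouring bases, 30 in all at chr13:85289515-85289544 on the minus strand, the motif in capitals (any base was allowed between its GCGC and TGCGC parts):
Rasa1: ctcccggaagGCGCCTGCGCagaagccccc
The response element was found in 0 of the 7 windows and in 0.00913% of all windows. The Pak1 windows held neither motif.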

How the data were processed

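RNA was measured by stranded polyA sequencing. The authors sequenced 50-base single-end reads, removed adapter dimers, mapped to mm10, kept unique reads and deposited raw counts per gene symbol; their text names HOMER and htseq-count 0.9.1, and the submitters' notes bcl2fastq 2.20.0.422. The aligner and the strand setting of the counting are not given in the sources used here. Groups were taken from the labels. Genes with a mean count over 50 in the libraries compared were tested by edgeR 4.0.16 (R 4.3.3; TMM scaling, quasi-likelihood, condition only, Benjamini-Hochberg over all genes tested); DESeq2 1.42.0 served as alternative. CPM values are TMM-scaled. The fits were tested on simulated data. Pak1 to partner ratios were compared by exact permutation tests over libraries. Coordinates, lengths and overlaps came from GENCODE (GRCm38), promoters from RefSeq. Named were the members, paralogs of them, pathway genes with an adjusted p under 0.05 in either comparison or, in roles without one, up to 3 with the smallest unadjusted p under 0.05 with all libraries, and the 5 genes most like Pak1. Results for some related genes are not reported here. Members and lists were chosen with earlier results of these data known.

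Other marker sums, in Ctrl replicates 1 to 3, the library labelled Ctrl replicate 4 and LSD1skm-/-, were 1029 to 2063, 1183 and 441.4 to 793.1 CPM for slow-twitch fibers, 11.2 to 36.7, 18.5 and 16.0 to 24.7 CPM for immune cells, 171.1 to 346.9, 485.6 and 165.5 to 176.7 CPM for adipocytes, 45.0 to 118.6, 158.7 and 54.6 to 92.5 CPM for Schwann cells, and 3638 to 4580, 3212 and 3178 to 3373 CPM for smooth muscle and pericytes. No marker was at 0 in every library. Des held 2801 to 4204 CPM in Ctrl and 2846 to 3077 CPM in LSD1skm-/-, so the smooth muscle and pericyte sum mostly reads Des. Fabp4 held 165.3 to 353.3 CPM in Ctrl and 162.9 to 168.3 CPM in LSD1skm-/-, most of the adipocyte sum. Adipoq, Plin1 and Cidec were lower in LSD1skm-/- without overlap (Adipoq 0.126 to 0.557 CPM against 0.781 to 19.5 CPM in Ctrl). Cfd overlapped, and Lep was not tested.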

Additional observations from a re-analysis of the deposited data

Results flagged for a closer look

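The level of Kdm1a stood apart in 1 of the 4 Ctrl libraries: the gap between the library labelled Ctrl replicate 4 (3.65 CPM) and its nearest neighbour took up 0.879 of the whole Ctrl range in log2 CPM, above Dixon's limit of 0.829 for 4 samples. Rps6ka3 stood apart in the same library (65.1 CPM against 87.6 to 92.6 CPM), with a gap of 0.842 of the range. Of 39 values tested in this way 2 passed the limit, and chance alone flags about 1 in 20 groups. No member gene passed it, Pak1 included.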

How the results depend on the processing

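The Pak1 log2 fold change stayed above 0 under every alternative run. Both LSD1skm-/- libraries lay above every Ctrl library, so leaving out 1 library could hardly turn its sign. The group differences of all 6 Pak1 to partner log2 ratios stayed above 0 with group medians and with each library left out. Where the groups of a ratio did not overlap, these checks could not turn the sign. Only Hras and Sos1 with all libraries had overlapping ratios. With all libraries the Pak1 log2 fold change ranged from 0.397 to 0.671 over the fits that each leave out one library, and no alternative brought an adjusted p under 0.05. Without the library labelled Ctrl replicate 4 the range was 0.532 to 0.874, and Pak1 passed an adjusted p of 0.05 with DESeq2 (0.660, adjusted p = 0.0189), with no filter beyond 1 count (0.662, adjusted p = 7.3e-05) and without Ctrl replicate 2 (0.874, adjusted p = 0.0145); the cause was not tested. Over the fits that leave out one library, the log2 fold changes with all libraries ranged from 0.0101 to 0.486 for Hras, -0.0856 to 0.118 for Nras, -0.18 to 0.0731 for Sos1, -0.113 to 0.0685 for Rasa1, -0.0778 to 0.0129 for Map2k1, -0.209 to 0.0363 for Mapk3, -0.157 to 0.0252 for Pak2 and -0.223 to 0.096 for Map2k2. Without the library labelled Ctrl replicate 4 these values ranged from -0.00652 to 0.472 for Hras, -0.0381 to 0.169 for Nras, -0.219 to 0.0318 for Sos1, -0.112 to 0.0675 for Rasa1, -0.0906 to 0.0515 for Map2k1, -0.16 to 0.0879 for Mapk3, -0.178 to 0.00594 for Pak2 and -0.278 to 0.0431 for Map2k2. Scaling by total counts alone turned the sign for Rasa1 (0.0196) and Map2k1 (0.000791) with all libraries, and for Rasa1 (0.0498), Map2k1 (0.0395) and Mapk3 (0.0364) without that library.

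The counts of calls depended on the processing. With all libraries, edgeR called 0 genes at an adjusted p under 0.05, 1011 at an unadjusted p under 0.05 and 717 with the fold limits. DESeq2 called 46 at an adjusted p under 0.05. With no filter beyond 1 count the calls were 149, and 1909 with the fold limits, 16 of them pathway genes in place of 9; with total counts alone the pathway genes called with the fold limits were 5. Over the fits that leave out one library the calls were 0 to 590, and 339 to 1681 with the fold limits, and among pathway genes 0 to 4 and 1 to 15. Without the library labelled Ctrl replicate 4 the main counts were 590 and 1681, with 4 pathway genes at an adjusted p under 0.05; DESeq2 called 1037, 11 of them pathway genes, and the fit with no filter beyond 1 count called 1914 and, with the fold limits, 3127, with 15 pathway genes at an adjusted p under 0.05. Leaving out a further library gave 94 to 531 and 1305 to 2089, with 0 to 5 and 11 to 15 pathway genes. The share of higher genes among the calls with the fold limits was 66.3% there and 79.5% with total counts alone. Rps6ka3 also missed 0.05 with total counts alone (adjusted p = 0.0837).

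Ctrl and LSD1skm-/- share replicate numbers 1 and 2, but nothing says that equal numbers were paired. Deviations from the group means correlated at -0.23 for number 1 and -0.033 for number 2. The deviations of the 2 LSD1skm-/- libraries mirror each other, so such values come as opposites (0.23 for Ctrl replicate 1 with LSD1skm-/- replicate 2). They therefore cannot decide whether equal numbers were paired. With the replicate number as a block and all libraries, 632 genes passed an adjusted p of 0.05 and 1668 the fold limits. Of these, 4 and 15 were pathway genes, and the Pak1 log2 fold change was 0.545 (edgeR adjusted p = 0.119). The share of higher genes among the calls with the fold limits was 66% beside 54.4% in the main fit. Ctrl replicates 3 and 4 share their number with no LSD1skm-/- library used here. In a block fit they therefore add nothing to the group difference, which rests on replicates 1 and 2 of each group. The change in calls from the main fit can thus not be read as an effect of the block over all libraries. Without the library labelled Ctrl replicate 4 the block gave 0.552 for Pak1 (adjusted p = 0.0827) and an adjusted p of 0.0864 for Rps6ka3. Pak1 had 682 to 1524 reads per library, and how much of its spread is counting error was not tested.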
